A study of Mus musculus with 20 samples.

Results

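The genes described here write, keep or remove the methyl group on cytosine in DNA. They were picked by symbol, with earlier results of these data known: the DNA methyltransferases Dnmt1, Dnmt3a and Dnmt3b, their partners Uhrf1 and Uhrf2, the dioxygenases Tet1, Tet2 and Tet3, and the DNA glycosylase Tdg. All 9 are among the 13107 genes of the count table of the Myc experiment. Of these, 7 are among the 11210 genes of the table of the HU experiment, which does not list Dnmt3b or Tet1.

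RNA was sequenced from mouse p19/Nras cells, grown from a liver tumor that Nras induced in an animal without p19/Arf, so every group carries the p19 deletion and Nras. In the Myc experiment, Trim33-WT cells (labelled sgCtrl) and the lines Trim33-KO1 and Trim33-KO2 (both labelled sgTrim33) carried the empty pWZL vector (Ctrl) or a Myc vector, which gives 6 groups of 2 libraries and 12 libraries. In the HU experiment, Trim33-WT and Trim33-KO cells received vehicle or 1 mM hydroxyurea (HU), an inhibitor of ribonucleotide reductase that stalls replication forks, for 4 hours, which gives 4 groups of 2 libraries and 8 libraries. Which KO line received HU is not in the labels, nor whether the lines are clones, nor whether replicates are separate cultures, so that p-values measure only the spread between these libraries, which may be technical.

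Cytosine methylation in mammals sits mostly at CpG dinucleotides and must be copied at each round of replication. Uhrf1 binds hemimethylated CpG behind the fork and recruits Dnmt1, the maintenance methyltransferase, whereas Dnmt3a and Dnmt3b can methylate unmodified CpG. Tet enzymes oxidize the methyl group stepwise, Tdg excises the most oxidized forms, and base excision repair then restores unmodified cytosine. In liver, as in other adult tissues, Dnmt1 and Uhrf1 are known for high transcript levels in dividing cells.

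Dnmt1 lies at chr9:20711650-20757317 on the minus strand of mm9, Uhrf1 at chr17:56442744-56462909 on the plus strand and Uhrf2 at chr19:30105003-30168212 on the plus strand. Dnmt3a lies at chr12:3806007-3914443 and Dnmt3b at chr2:153475186-153513466, both on the plus strand. Tet1 at chr10:62267318-62361866, Tet2 at chr3:133126643-133207354 and Tet3 at chr6:83312367-83391672 are on the minus strand, and Tdg at chr10:82092573-82113544 is on the plus strand. All are protein-coding genes in GENCODE. By exon coordinates, Tdg overlaps the antisense gene Glt8d2 over 367 bases and Dnmt3a overlaps Gm10485 over 133 bases. Since the use of strand in counting is not stated, reads from these overlaps cannot be assigned.

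The promoters of the members, from 250 bases before to 50 bases after each RefSeq start site (GRCm38.p6), were searched on both strands for the E2f motifs TTCCCGC and TTGGCGC and for the E-box CACGTG, the core site of Myc and related factors. They were matched letter for letter to mm9, the build of the files. The stretch around the match is shown for every member with one, so that the motifs can be compared. Capitals mark the motif.
Dnmt1, chr9:20757018-20757047, minus strand, intron of the GENCODE gene: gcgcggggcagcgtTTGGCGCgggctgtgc
Uhrf1, chr17:56442700-56442729, plus strand, upstream of the GENCODE gene: ttgctttctcgcTTCCCGCcacagcgccag
Uhrf2, chr19:30104934-30104963, plus strand, upstream of the GENCODE gene: gcgagatccgggTTGGCGCcgtgacctcca
Dnmt3a, chr12:3891652-3891681, plus strand, intron of the GENCODE gene: tccagtggggccCACGTGacctggagttct
Tdg, chr10:82092543-82092572, plus strand, upstream of the GENCODE gene: cctggccagcatCACGTGatggcgaggccg

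The first base of the motif was at 35 bases after the start site in 1 of the 3 Dnmt1 windows, at -48 in 1 of the 2 Uhrf1 windows and at -57 in the Uhrf2 window. An E2f motif was found in 3 of the 9 members (33.3%), Dnmt1, Uhrf1 and Uhrf2, against 7.79% of all 27025 genes and 6.81% of all 32851 windows. The E-box began at -80 in 1 of the 3 Dnmt3a windows and at -28 in Tdg. Of the 9 members, Dnmt3a and Tdg held it, against 8.09% of all 27025 genes and 7.15% of all windows. A match is a run of letters and was not tested as a binding site. Uhrf1 had the largest fold change of the members above 5 CPM, and its upstream sequence up to the annotated gene is given in full.
Uhrf1, chr17:56442510-56442743, plus strand: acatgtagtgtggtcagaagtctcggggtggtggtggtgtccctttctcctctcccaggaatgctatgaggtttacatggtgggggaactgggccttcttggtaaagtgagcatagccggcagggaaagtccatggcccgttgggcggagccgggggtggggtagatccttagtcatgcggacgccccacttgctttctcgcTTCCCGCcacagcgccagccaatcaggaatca

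**Figure D1:**
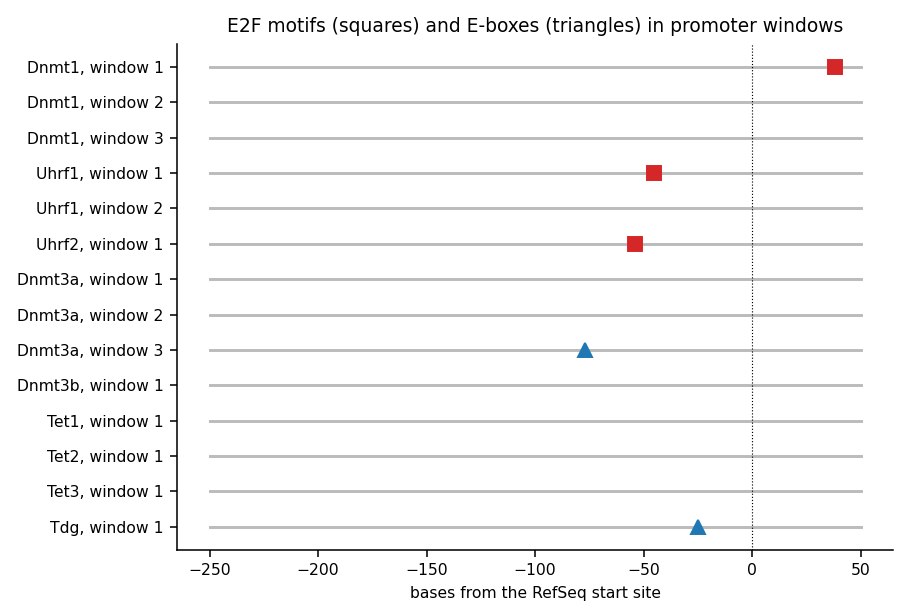
Positions of motif matches in the promoter windows of the 9 members, in bases from the RefSeq start site; each grey line is a window from 250 bases before to 50 bases after a start site, squares are E2f motifs and triangles are E-boxes. Squares are seen in Dnmt1, Uhrf1 and Uhrf2, and triangles in Dnmt3a and Tdg.

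Trim33 mRNA, the target of the knockout, was 245.6 and 258.1 CPM (WT Ctrl), 123.4 and 130.4 (KO1 Ctrl) and 200.9 and 206.8 (KO2 Ctrl) (CPM, counts scaled to a common library size after TMM normalization). It was 130.7 and 154.7 in the WT Myc-labelled libraries, 185.4 and 192.5 in the KO1 Myc-labelled ones, and 124.1 and 124.7 in the KO2 Myc-labelled ones. With the Myc vector Trim33 mRNA was higher in KO1 than in WT (log2FC 0.40, edgeR adjusted p = 0.000243), the opposite order to the Ctrl vector. In KO2 it was lower than in WT, by a log2FC of -0.20 that did not pass (edgeR adjusted p = 0.0263). The paper made the knockouts with CRISPR and shows them by immunoblot, so Trim33 mRNA alone cannot settle the KO label. Myc mRNA was not higher in the WT Myc-labelled libraries, at 455.9 and 457.6 CPM, than the spread allows over WT Ctrl, at 432.8 and 439.0 (log2FC 0.07, edgeR adjusted p = 0.31). KO1 Ctrl and KO2 Ctrl held 191.4 and 214.4 on average. In the KO1 Myc-labelled libraries Myc mRNA averaged 633.4 CPM, above KO1 Ctrl (log2FC 1.73, edgeR adjusted p = 1.2e-12). In the KO2 Myc-labelled ones it averaged 479.1, above KO2 Ctrl (log2FC 1.16, edgeR adjusted p = 9.14e-11). Directions drawn from these libraries rest on their labels. In the HU experiment Trim33 was 139.7 and 125.2 CPM in WT vehicle and 50.8 and 43.8 in KO vehicle, as labelled. Myc mRNA averaged 182 CPM in WT vehicle and 180 in KO vehicle (log2FC -0.02, edgeR adjusted p = 0.95). Libraries of the Myc experiment held 14753177 to 17949430 counts. Those of the HU experiment held 2315327 to 3082202, which makes their values less precise. Of 12 hepatocyte markers, 0 are in the first table and 1, Apob, in the second. Of mesenchymal markers, 7 of 7 and 5 of 7 are present, at 4885 to 8631 and 3456 to 4218 CPM summed per library. Epithelial markers are present as well, 3 of 4 (Krt8, Krt18, Cldn4) and 2 of 4 (Krt8, Krt18), at 1861 to 3892 and 2039 to 2844 CPM. Each table also holds 4 of 6 biliary and progenitor markers and 1 of 4 fetal liver markers, Afp, and 0 leukocyte or endothelial markers.

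Per kilobase of exon, Dnmt1 had the highest level of the members in each of the 10 groups. In WT Ctrl it stood at 28.4 ± 0.251 CPM per kb (SD, n = 2), followed by Tdg at 19.11 ± 0.162, Uhrf1 at 14.2 ± 0.235 and Uhrf2 at 10.6 ± 0.235. In the other 9 groups Uhrf1 was second, reaching 50.2 ± 1.39 in KO2 Ctrl and 54.6 ± 5.80 in KO HU, where Dnmt1 was at 59.2 ± 3.61. Tet3, Tet2 and Dnmt3a formed a lower tier between 1.08 and 4.97 CPM per kb, with Tet2 and Dnmt3a at 2.04 ± 0.161 and 1.76 ± 0.148 in WT Ctrl. The SDs of each of these pairs overlapped, but paired genes come from the same libraries and were not compared within a library. Dnmt3b stayed under 1 CPM per kb in the 6 groups of the Myc experiment, and Tet1 was lowest, with 0 to 15 counts per library.

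The first question of the design is what changes with loss of Trim33, with Myc, and with both. Between KO1 Ctrl and WT Ctrl, 5 of the 9 members passed the test at an adjusted p below 0.01, 4 higher and 1 lower, where 52.2% of all genes did, 25.5% higher and 26.7% lower. Between KO2 Ctrl and WT Ctrl 3 members passed, all higher, where 49.9% of all genes did, 23.3% higher and 26.6% lower. Between the WT Myc-labelled libraries and WT Ctrl 5 passed, 4 higher and 1 lower, against 44.3% of all genes, 21.6% higher and 22.7% lower. The median log2FC of the 9 members was 0.21, 0.32 and 0.24 in these comparisons, against medians over all genes of -0.0036, -0.011 and 0.0069. In each, 8 of 9 members had groups that did not overlap, against 83.9%, 82.1% and 75.2% of all genes. The members' shares are read against these backgrounds and show nothing particular to them as a group. The 3 comparisons share the 2 WT Ctrl libraries. Tests were edgeR's quasi-likelihood test with Benjamini-Hochberg adjustment over all genes of a table.

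**Figure D2:**
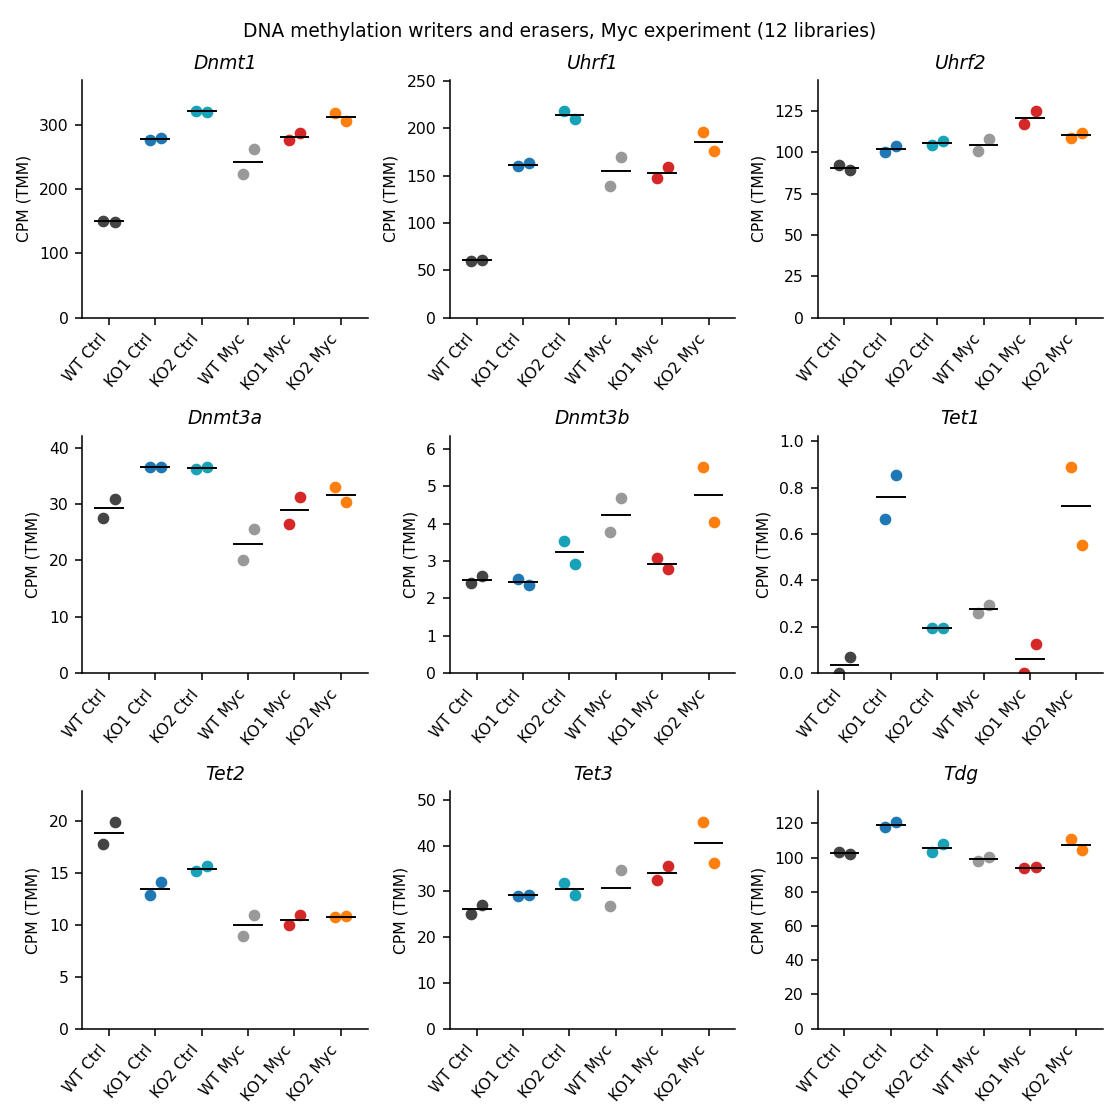
CPM (TMM) of the 9 members in each of the 12 libraries of the Myc experiment, with points for libraries and a line for the mean of the 2 libraries of a group; axes start at 0. Dnmt1 and Uhrf1 are lowest in the WT Ctrl libraries, at 150.4 and 148.5 and at 59.6 and 61.0 CPM.

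Dnmt1, the maintenance methyltransferase, was at 150.4 and 148.5 CPM (WT Ctrl), 276.1 and 278.6 (KO1 Ctrl) and 320.8 and 320.4 (KO2 Ctrl). Neither KO group overlapped WT Ctrl. The log2FC was 0.89 ± 0.066 in KO1 (± standard error; edgeR adjusted p = 6.46e-09), a 1.86-fold rise, and 1.10 ± 0.066 in KO2 (adjusted p = 7.28e-10), a 2.15-fold rise. In the WT Myc-labelled libraries it was 223.4 and 261.6 CPM, higher than in WT Ctrl by a log2FC of 0.70 (adjusted p = 2.61e-07).

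Uhrf1, which guides Dnmt1 to hemimethylated DNA, rose by larger folds. It was at 59.6 and 61.0 CPM (WT Ctrl), 159.8 and 163.2 (KO1 Ctrl) and 218.0 and 209.6 (KO2 Ctrl). The rise was 2.68-fold in KO1 (log2FC 1.42 ± 0.086, edgeR adjusted p = 5.53e-10) and 3.54-fold in KO2 (log2FC 1.82 ± 0.085, adjusted p = 4.1e-11). In the WT Myc-labelled libraries it was 138.8 and 169.9 CPM, 2.56-fold over WT Ctrl (log2FC 1.36, adjusted p = 3.52e-09). For each of these comparisons, all alternatives, including leaving out any library, kept the calls of Dnmt1 and Uhrf1.

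Counts of Uhrf1 per count of Dnmt1 were 0.397 and 0.411 in WT Ctrl and between 0.534 and 0.679 in the other 10 libraries of the Myc experiment. In the HU experiment the ratio ran from 0.473 in a WT vehicle library to 0.769 in a KO HU library.

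**Figure D3:**
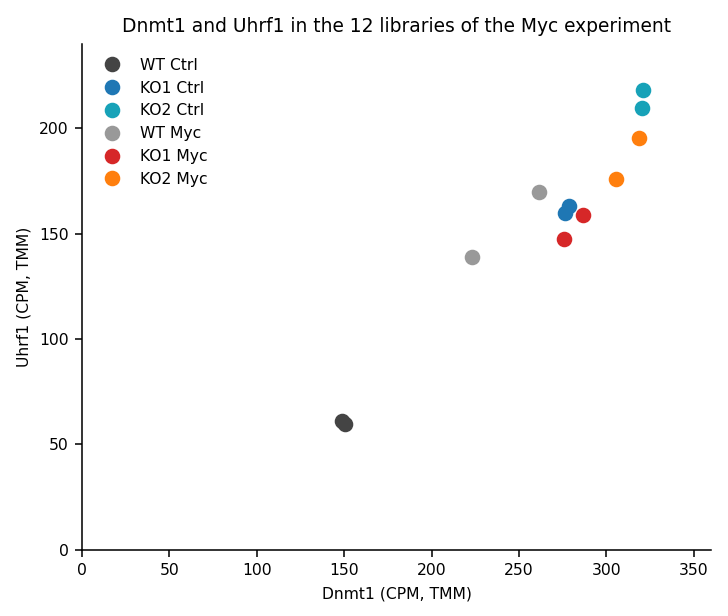
Uhrf1 against Dnmt1, both in CPM (TMM), in the 12 libraries of the Myc experiment, coloured by group. The 2 WT Ctrl libraries lie apart at the lower left, at about 150.4 and 59.6 CPM, and the other 10 lie to the upper right.

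Between the KO lines with Ctrl vector, Uhrf1 was higher in KO2 than in KO1 (log2FC 0.40 ± 0.079, edgeR adjusted p = 0.00102), the only 1 of 9 members to pass, where 18.3% of all genes did and 8.33% were higher. Groups did not overlap for 8 of 9 members, against 69.9% of all genes. Without KO1 Ctrl replicate 1, KO1 Ctrl replicate 2 or KO2 Ctrl replicate 1 it did not pass, with adjusted p up to 0.0172. Dnmt1 was higher in KO2 by a log2FC of 0.21 that missed the threshold (adjusted p = 0.0217) and passed it with the 2 groups alone in the fit (adjusted p = 1.37e-05).

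Adding the Myc vector to a KO line gave no detectable further rise of these genes. Myc mRNA itself rose there (log2FC 1.73 in KO1 and 1.16 in KO2). Dnmt1 was at 275.9 and 286.6 CPM in the KO1 Myc-labelled libraries, overlapping KO1 Ctrl, and at 318.5 and 305.4 in the KO2 Myc-labelled ones. Its log2FC was 0.02 in KO1 (95% interval -0.12 to 0.16, edgeR adjusted p = 0.826) and -0.04 in KO2 (-0.17 to 0.10, adjusted p = 0.632). For Uhrf1, at 147.3 and 158.9 and at 195.5 and 175.8 CPM, it was -0.08 (-0.25 to 0.09, adjusted p = 0.451) and -0.20 (-0.37 to -0.04, adjusted p = 0.0397). With the compared groups alone in the fit, the fall of Uhrf1 in KO2 passed (log2FC -0.21, edgeR adjusted p = 0.00201). The difference between the Myc effects was itself tested: for Dnmt1 it was -0.68 in KO1 minus WT (edgeR adjusted p = 1.48e-05) and -0.74 in KO2 minus WT (adjusted p = 7.09e-06), and for Uhrf1 -1.43 (adjusted p = 6.29e-08) and -1.56 (adjusted p = 2.88e-08). In these tests 4 of 9 members passed with KO1, all lower, against 37.3% of all genes, 19.2% higher and 18.1% lower, and 2 with KO2, both lower, against 32.8%, 16.6% higher and 16.2% lower. Both rest on the WT Ctrl libraries and on the labels of the Myc libraries.

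Uhrf2, the paralog of Uhrf1 that also binds modified cytosine, moved little. It was at 92.1 and 89.3 CPM (WT Ctrl), 100.1 and 103.5 (KO1 Ctrl), 104.1 and 106.6 (KO2 Ctrl) and 100.9 and 107.8 in the WT Myc-labelled libraries. It passed in KO2 (log2FC 0.22, edgeR adjusted p = 0.00524) and with the WT Myc label (log2FC 0.20, adjusted p = 0.00851) but not in KO1 (log2FC 0.17, adjusted p = 0.0236). These calls depended on the fit. With the groups alone Uhrf2 passed in KO1 (edgeR adjusted p = 0.0056) and not with the WT Myc label (0.0564). RLE size factors also lost the WT Myc call (edgeR adjusted p = 0.0136). DESeq2 called it neither in KO2 (DESeq2 adjusted p = 0.0116) nor with the WT Myc label (0.0343). The call in KO2 was lost when any of the 4 libraries compared was left out, with adjusted p up to 0.0467, and the call with WT Myc without WT Ctrl replicate 1 or 2 or WT Myc replicate 2, with adjusted p up to 0.0681. In the KO1 Myc-labelled libraries it was 116.9 and 124.8 CPM, above KO1 Ctrl (log2FC 0.25, edgeR adjusted p = 0.00238, up to 0.038 without KO1 Ctrl replicate 1 or 2 or KO1 Myc replicate 2) and, by 0.21, above the WT Myc-labelled ones (adjusted p = 0.00956, but 0.0706 with these groups alone in the fit and up to 0.114 without WT Myc replicate 1 or KO1 Myc replicate 2).

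Of the genes with at least 5 CPM, those whose log2 CPM followed Dnmt1 most closely over the 12 libraries were Wdhd1 (Pearson r = 0.994), a replisome factor, Ncapd2 (0.988), a condensin subunit, and Slc6a6 (0.987), a taurine transporter. For Uhrf1 they were Ncapd2 (0.988), Chaf1a (0.984), a subunit of the chromatin assembly factor, and Dnmt1 itself (0.981). The libraries form 6 groups of which WT Ctrl lies apart, so these values describe the likeness of patterns and carry no p.

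A list of 25 S phase genes was read beside Dnmt1 and Uhrf1. With KO1 Ctrl against WT Ctrl 23 of the 25 were higher and 2 lower, with a median log2FC of 0.79 against -0.0036 over all genes, of which 52.2% passed. With KO2 Ctrl 23 were higher and 1 lower (median 0.96 against -0.011, with 49.9% of all genes called), and in the WT Myc-labelled libraries 24 were higher and 1 lower (median 0.75 against 0.0069, with 44.3% called). With the Myc vector in KO cells 2 were higher and 5 lower in KO1 (median -0.06 against 0.0066, with 36.1% called), and 1 higher and 13 lower in KO2 (median -0.23 against 0.017, with 38.8% called). Ccne1, the E-type cyclin of S phase entry, rose from 7.46 to 35.8 CPM in KO2 Ctrl (log2FC 2.26, edgeR adjusted p = 8.1e-11), and Ung, a uracil glycosylase, from 3.72 to 15.4 CPM in KO1 Ctrl (log2FC 2.05, adjusted p = 3.62e-09). Their part in the values of Dnmt1 and Uhrf1 was not tested, and more cells in S phase and more RNA per cell cannot be told apart in these bulk samples.

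In the HU experiment, where Trim33 mRNA fell as labelled, 0 of the 7 members passed between KO vehicle and WT vehicle in edgeR's test and in DESeq2, against 5.58% of all genes, 3.07% higher and 2.52% lower, and 2, Dnmt3a and Tdg, had an unadjusted p under 0.05. Groups did not overlap for 5 of 7 members, against 50.1% of all genes. Dnmt1 was at 342.3 and 378.2 CPM in WT vehicle and 341.5 and 347.1 in KO vehicle, and the groups overlapped. Its log2FC was -0.07 (95% interval -0.28 to 0.15, adjusted p = 0.77), and the interval leaves out the rises seen with the Ctrl vector, 0.89 and 1.10. Uhrf1 was at 203.1 and 178.9 CPM in WT and 226.9 and 220.5 in KO, without overlap (log2FC 0.23, -0.01 to 0.47, adjusted p = 0.225). The tables were normalized and fitted separately, and the difference between the experiments was not tested. Of the 25 S phase genes, 0 passed between KO and WT vehicle (median log2FC -0.01).

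HU did not move Dnmt1, Uhrf1 or Uhrf2 detectably. Dnmt1 was at 330.9 and 333.9 CPM in WT HU and 324.9 and 297.9 in KO HU, with log2FC against vehicle of -0.12 (95% interval -0.33 to 0.10) and -0.14 (-0.36 to 0.07). Uhrf1 was at 191.5 and 203.3 CPM in WT HU and 249.9 and 215.0 in KO HU, with log2FC of 0.05 (-0.19 to 0.29) and 0.06 (-0.18 to 0.29), and Uhrf2 had log2FC of 0.22 in WT and 0.23 in KO (edgeR adjusted p = 0.423 and 0.489).

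**Figure D4:**
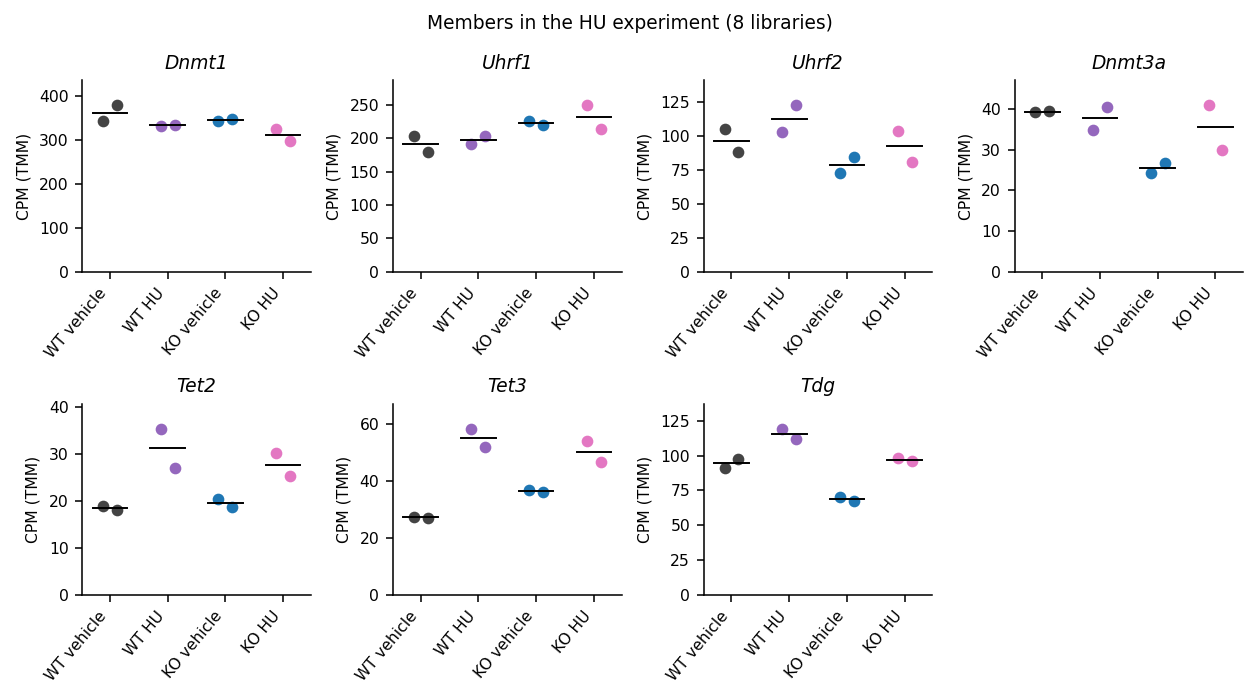
CPM (TMM) of the 7 members listed in the HU experiment, in each of 8 libraries, with points for libraries and a line for the mean of the 2 libraries of a group; axes start at 0. Tet3 lies at 27.4 and 27.1 CPM in WT vehicle and at 58.2 and 52.0 in WT HU.

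Dnmt3a, a de novo methyltransferase, was at 27.5 and 31.0 CPM (WT Ctrl), 36.6 and 36.5 (KO1 Ctrl) and 36.2 and 36.6 (KO2 Ctrl). Both KO groups lay above WT Ctrl, but the log2FC of 0.32 in each missed the threshold (edgeR adjusted p = 0.0141 in KO1 and 0.0159 in KO2). With only the compared groups in the fit both passed (adjusted p = 0.000953 and 0.00058). Myc against Ctrl vector gave a log2FC of -0.35 in WT, -0.34 in KO1 and -0.20 in KO2. None of these passed (edgeR adjusted p = 0.013, 0.0127 and 0.11). With a replicate block Dnmt3a passed in WT and KO1 (edgeR adjusted p = 0.00907 and 0.00871), and with the groups alone in KO1 (0.000834). In the WT Myc-labelled libraries it was 20.2 and 25.6 CPM, and in the KO2 Myc-labelled ones 33.0 and 30.3, a difference that passed (log2FC 0.47, adjusted p = 0.00201) as 1 of 3 members that did, the others being Dnmt1 (0.36) and Tet3 (0.40), all higher, against 35.2% of all genes in either direction and 17.2% higher. With these groups alone in the fit Dnmt1 did not pass (adjusted p = 0.0115), and Tet3 also not without WT Myc replicate 1 or KO2 Myc replicate 1 (adjusted p up to 0.159). The call of Dnmt3a did not hold without WT Myc replicate 1 or KO2 Myc replicate 1, nor with these groups alone in the fit, with adjusted p up to 0.0257. In vehicle-treated cells of the HU experiment the KO was at 24.4 and 26.7 CPM and WT at 39.4 and 39.5, the opposite order to the Ctrl-vector libraries, and the log2FC of -0.62 did not pass (edgeR adjusted p = 0.0678). Under HU the groups overlapped, at 41.0 and 30.03 CPM in KO and 35.0 and 40.5 in WT.

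Dnmt3b, the other de novo enzyme, was rare, at 2.40 and 2.60 CPM (WT Ctrl), 2.53 and 2.37 (KO1 Ctrl) and 3.53 and 2.93 (KO2 Ctrl). In the WT Myc-labelled libraries it rose to 3.77 and 4.67 CPM (log2FC 0.76 ± 0.22, edgeR adjusted p = 0.00749), but not when WT Ctrl replicate 1 or 2 or WT Myc replicate 2 was left out (adjusted p up to 0.068), nor in DESeq2 (0.0368). In the KO2 Myc-labelled ones, at 5.52 and 4.03 CPM, it lay above KO2 Ctrl by a log2FC of 0.56 that did not pass (adjusted p = 0.0265).

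Among the Tet dioxygenases, Tet2 had its highest values of the Myc experiment in WT Ctrl. It was at 17.7 and 19.8 CPM (WT Ctrl), 12.8 and 14.1 (KO1 Ctrl), 15.2 and 15.6 (KO2 Ctrl) and 8.91 and 10.9 in the WT Myc-labelled libraries. The fall passed in KO1 (log2FC -0.48 ± 0.11, edgeR adjusted p = 0.00123) and with the WT Myc label (log2FC -0.92 ± 0.11, adjusted p = 5.68e-06) but not in KO2 (log2FC -0.29, adjusted p = 0.0298). The call in KO1 was lost without WT Ctrl replicate 2 or KO1 Ctrl replicate 1, with adjusted p up to 0.0233. In the KO2 Myc-labelled libraries it was 10.7 and 10.8 CPM, below KO2 Ctrl by 0.51 (adjusted p = 0.0014, and up to 0.015 without KO2 Ctrl replicate 2 or KO2 Myc replicate 1 or 2), and in the KO1 Myc-labelled ones 10.0 and 10.9, a log2FC of -0.36 that did not pass (adjusted p = 0.0183).

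In HU Tet2 was at 18.8 and 18.0 CPM in WT vehicle and 35.3 and 27.0 in WT HU, and at 20.3 and 18.7 in KO vehicle and 30.05 and 25.3 in KO HU. The groups did not overlap in either line, but the log2FC of 0.76 in WT (edgeR adjusted p = 0.0588) and 0.51 in KO (0.324) did not pass at 0.05. With counts divided by 2, tried because 71.9% of the low counts in this table are even, the WT value passed (adjusted p = 0.0493).

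Tet3 was the member that HU raised in WT cells, from 27.4 and 27.1 CPM in vehicle to 58.2 and 52.0 under HU. The 2.02-fold rise (log2FC 1.02 ± 0.21, edgeR adjusted p = 0.000298) was the only 1 of 7 members to pass, against 9.83% of all genes, 6.39% higher and 3.44% lower, and it passed without any 1 library. Groups did not overlap for 4 of 7 members, against 51.0% of all genes. In KO cells Tet3 went from 36.6 and 36.1 to 53.7 and 46.6 CPM, a log2FC of 0.47 (95% interval 0.06 to 0.87) that did not pass (adjusted p = 0.193). The HU effect was not shown to differ between the lines, with a difference of -0.55 in KO minus WT (-1.13 to 0.04, adjusted p = 0.933). In that test 0 of 7 members passed in edgeR and in DESeq2, 0 had an unadjusted p under 0.05, and 0.0714% of all genes passed. In the Myc experiment Tet3 was at 25.2 and 27.1 CPM in WT Ctrl and 31.9 and 29.3 in KO2 Ctrl, and rose in the KO2 Myc-labelled libraries to 45.1 and 36.2 (log2FC 0.41, edgeR adjusted p = 0.0073). Without KO2 Myc replicate 1 this fell to 0.24 (adjusted p = 0.131), and without KO2 Ctrl replicate 1 or 2 it did not pass either. With Tet2, it made up the 2 of 9 members that passed there, against 38.8% of all genes, 20.2% higher and 18.6% lower. Groups did not overlap for 8 of 9 members, against 77.5% of all genes.

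Tet1 was close to undetected. WT Ctrl held 0 and 1 counts, KO1 Ctrl 10 and 13, and KO2 Ctrl 3 and 3. There were 4 and 5 in the WT Myc-labelled libraries, 0 and 2 in the KO1 Myc-labelled ones, and 15 and 10 in the KO2 Myc-labelled ones. KO1 Ctrl held 21.9 times the rate of WT Ctrl, with a counting interval of 3.55 to 902 (exact, 95%), and KO1 Myc 0.0788 times that of KO1 Ctrl (0.00900 to 0.319). These passed edgeR's test (adjusted p = 0.000618 and 0.0012), but fitted fold changes at such counts depend on the prior count, and intervals cover counting error only. The first call was lost without WT Ctrl replicate 1 (adjusted p = 0.011) and the second without KO1 Ctrl replicate 2 or KO1 Myc replicate 1 (adjusted p up to 0.0194), and in DESeq2 both were lost (0.0128 and 0.0122). In KO1 Myc 3 of 9 members passed against KO1 Ctrl, where 36.1% of all genes did, 17.9% higher and 18.2% lower. The members that passed were Uhrf2, higher, and Tet1 and Tdg, lower, and groups did not overlap for 8 of 9 members, against 76.1% of all genes. Between KO1 Myc and WT Myc 1 of 9, Uhrf2, passed, where 25.1% of all genes did and 12.6% were higher, and 6 of 9 had groups that did not overlap, against 64.3%.

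Tdg, the glycosylase that removes oxidized methylcytosine, was at 103.3 and 102.1 CPM (WT Ctrl), 117.8 and 120.5 (KO1 Ctrl) and 103.0 and 107.9 (KO2 Ctrl). It was higher in KO1 by a log2FC of 0.21 ± 0.056 (edgeR adjusted p = 0.00319), a call lost without any 1 of the 4 libraries compared (adjusted p up to 0.0312), and in KO2 it overlapped WT Ctrl. In the KO1 Myc-labelled libraries it was 94.0 and 94.3 CPM, below KO1 Ctrl by 0.34 (adjusted p = 0.000103), a fall that each alternative kept. The fall was larger in KO1 than the change in WT by 0.29 (adjusted p = 0.00606), a difference lost when either library of WT Ctrl, KO1 Ctrl or KO1 Myc was left out (adjusted p up to 0.0316). The pseudogene Tdg-ps, listed at 18.1 to 31.1 CPM, can share reads with Tdg. With Tdg-ps added, the difference between KO1 and WT did not pass (log2FC -0.23, edgeR adjusted p = 0.0237).

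In the HU experiment Tdg was at 91.2 and 97.7 CPM in WT vehicle and 70.3 and 67.2 in KO vehicle, without overlap, and the log2FC of -0.46 missed the threshold of 0.01 (edgeR adjusted p = 0.0344). HU brought it to 98.3 and 96.0 CPM in KO cells (log2FC 0.50 ± 0.15, adjusted p = 0.0287), the only 1 of 7 members to pass at 0.05, against 6.45% of all genes, 4.65% higher and 1.80% lower. Groups did not overlap for 5 of 7 members, against 45.1% of all genes. The call was lost without any 1 of the 4 libraries compared (adjusted p up to 0.194), in DESeq2 (0.0848) and with Tdg-ps added (0.115). In WT cells it was 119.3 and 111.5 CPM under HU (log2FC 0.29, adjusted p = 0.233). Between KO HU and WT HU 0 of 7 members passed in edgeR and in DESeq2, against 6.04% of all genes, and 1, Uhrf1, had an unadjusted p under 0.05. Groups did not overlap for 3 of 7, against 55.4% of all genes.

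**Figure D5:**
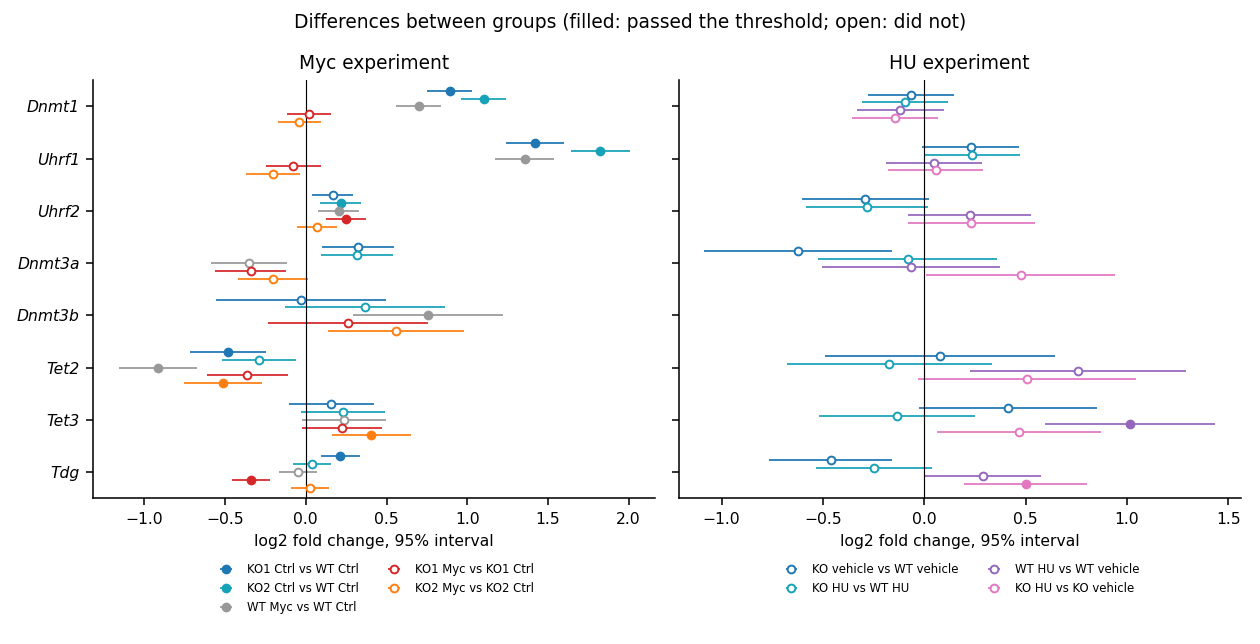
Log2 fold changes with 95% intervals of the members other than Tet1 in 5 comparisons of the Myc experiment (left) and 4 of the HU experiment (right), coloured by comparison; filled points passed the adjusted p threshold and open points did not. Dnmt1 and Uhrf1 lie between 0.70 and 1.82 in the 3 comparisons with WT Ctrl, and passed in none of the other 6 shown.

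Of 13 partners of the writers in the tables, among them the chromatin remodeler Hells and Zfp57, which keeps imprints methylated, 9 were higher and 1 lower in KO1 Ctrl, 10 higher and 0 lower in KO2 Ctrl, and 8 higher and 0 lower in the WT Myc-labelled libraries, with medians of 0.30, 0.44 and 0.35. Of all genes, 25.5%, 23.3% and 21.6% were higher and 26.7%, 26.6% and 22.7% lower in these comparisons. Zfp57 had no common direction with the KO label. It was lower in KO1 Ctrl than in WT Ctrl, at 42.9 against 77.8 CPM (log2FC -0.86, edgeR adjusted p = 2.02e-07), while KO2 Ctrl stood at 77.1 (log2FC -0.01, adjusted p = 0.897). It was also lower in the KO2 Myc-labelled libraries than in the WT Myc-labelled ones (log2FC -0.39, adjusted p = 0.000985). In the HU experiment it was higher in KO vehicle than in WT vehicle, at 50.6 against 28.8 CPM (log2FC 0.81, adjusted p = 0.00768). Usp7, a deubiquitinase that binds Dnmt1 and Uhrf1, was higher in the KO1 Myc-labelled and KO2 Myc-labelled libraries than in the WT Myc-labelled ones (log2FC 0.61 and 0.59, adjusted p = 4.47e-06 and 3.33e-06).

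Of 10 methyl-CpG readers, 1 was higher and 2 lower in KO1 Ctrl, 2 higher and 2 lower in KO2 Ctrl, and 1 higher and 5 lower in the WT Myc-labelled libraries. Of all genes 52.2%, 49.9% and 44.3% passed there. Zbtb4, a zinc finger reader, fell from 39.2 to 20.2 CPM in KO2 Ctrl (log2FC -0.95, edgeR adjusted p = 4.79e-08).

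The base excision repair list, which acts after Tet and Tdg, had 14 genes in each table. In KO1 Ctrl 5 were higher and 3 lower, in KO2 Ctrl 7 and 3, and in the WT Myc-labelled libraries 8 and 2, where 52.2%, 49.9% and 44.3% of all genes passed. Gadd45a, a stress-induced gene linked to repair-based demethylation, fell from 139.9 to 31.6 CPM in KO1 Ctrl and to 23.4 in KO2 Ctrl (log2FC -2.15 and -2.58, edgeR adjusted p = 2.2e-09 and 5.35e-10). With the Myc vector it rose in KO1 and KO2 (log2FC 1.57 and 1.79, adjusted p = 2.36e-07 and 8.17e-08). Its relatives went the other way in the KO lines with Ctrl vector. Gadd45b rose from 6.23 to 28.5 CPM in KO1 and to 13.5 in KO2 (log2FC 2.19 and 1.11, adjusted p = 2.63e-10 and 3.57e-06). Gadd45g rose by a log2FC of 0.57 and 1.00 (adjusted p = 0.000239 and 5.34e-07). Gadd45a rose under HU from 8.96 to 59.3 CPM in WT and from 5.76 to 47.6 in KO (log2FC 2.69 and 3.05, adjusted p = 9.13e-12 and 2.87e-12).

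Of 9 Tet partners and genes of cofactor supply, 4 were higher and 2 lower in KO1 Ctrl and in KO2 Ctrl, and 5 higher and 3 lower in the WT Myc-labelled libraries, against 52.2%, 49.9% and 44.3% of all genes called. Idh1, which makes 2-oxoglutarate, the cosubstrate of Tet enzymes, was higher in KO1 Ctrl than in WT Ctrl, at 119.5 against 46.4 CPM (log2FC 1.37, edgeR adjusted p = 2.26e-10), and in KO2 Ctrl (log2FC 0.81, adjusted p = 1.93e-07). It was lower in the KO1 Myc-labelled libraries than in KO1 Ctrl (log2FC -1.21, edgeR adjusted p = 2.27e-09). Of 10 methyl donor genes, 2 were higher and 3 lower in both KO lines with Ctrl vector, against the same 52.2% and 49.9% called. HU lowered Mat2a, the S-adenosylmethionine synthetase, from 303.2 to 166.0 CPM in WT (log2FC -0.87, adjusted p = 1.85e-08) and from 321.7 to 179.5 in KO (-0.84, adjusted p = 4.95e-08). Of 26 germline genes that promoter methylation silences in somatic cells, 1, Sycp3, was listed in the Myc experiment, where it passed in 0 comparisons in edgeR's test, and 0 are in the other.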

How the data were processed

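Total RNA of p19/Nras cells was sequenced in 12 libraries of the Myc experiment and 8 of the HU experiment. Per the labels and the paper's methods, the authors mapped reads to mm9 with STAR 2.5.4. They deposited whole-number counts per gene, with no normalization that the values show, although the name of 1 table calls them normalized. The counting tool, annotation and use of strand are not given in the sources used here. The labels name TRIzol and NEBNext Ultra II, and the paper's methods RNeasy and NEBNext Ultra. The authors' 8 tables of their own edgeR 3.26.8 comparisons (fold changes and p-values) were not used.

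Each table was fitted alone with edgeR 4.0.16 (limma 3.58.1, R 4.3.3): TMM, 1 coefficient per group, the quasi-likelihood test with 13107 and 11210 genes, and Benjamini-Hochberg adjustment over all of them. filterByExpr removed 0 genes. The threshold was 0.01 for KO against WT and Myc against Ctrl and their difference, and 0.05 for HU against vehicle and its difference. The standard error is the absolute log2 fold change divided by the square root of F. Replicate libraries differed by 2.21 to 11.0 times the counting noise, so none was counted as a duplicate. The 11.0 belongs to WT Myc, and the next highest group of the Myc experiment was KO2 Myc at 4.52. The spread shared between groups may therefore understate the noise of comparisons with WT Myc. Common coefficients of variation were 0.0498 and 0.102. Exon lengths are those of GENCODE vM1 for mm9, and promoter sequences are from RefSeq (GRCm38.p6), with all 9 members matched. DESeq2 1.42.0, RLE size factors, filters, the compared groups alone, a replicate block and leaving out libraries were alternatives. Summing Tdg with Tdg-ps was chosen after seeing the data. The fits were tested on simulated data with known changes, drawn with the same spread for all genes and groups of an experiment. Such data do not cover the higher noise of WT Myc, and the outcome is not reported here.

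The members and the gene lists were chosen with earlier results of these data known. Named were all members, Trim33, Myc and, per comparison, up to 3 called genes with the largest rise and 3 with the largest fall in the pooled lists, at a mean of at least 5 CPM. A selection of these is printed, chosen after their values were seen, as were values of these genes in other comparisons. Some list genes are not reported here. Likeness is Pearson's r of log2 CPM over 10296 genes of at least 5 CPM, with the 3 highest kept.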

Additional observations from a re-analysis of the deposited data

Results flagged for a closer look

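The effect of the Myc vector differed between KO and WT cells for 4 members with KO1 and 2 with KO2, by edgeR's test of the difference itself with its adjusted p. For Uhrf1 the difference in log2FC was -1.43 in KO1 minus WT (adjusted p = 6.29e-08 in edgeR) and -1.56 in KO2 minus WT (adjusted p = 2.88e-08). For Dnmt1 it was -0.68 (adjusted p = 1.48e-05) and -0.74 (adjusted p = 7.09e-06). In each case the transcript was higher in both libraries labelled WT Myc than in both WT Ctrl libraries. For Tdg the difference in KO1 was -0.29 (edgeR adjusted p = 0.00606), a call lost in 9 of 15 alternatives. Among these were DESeq2 (adjusted p = 0.0216), the compared groups alone (edgeR adjusted p = 0.0113) and Tdg-ps added (edgeR adjusted p = 0.0237). For Tet1 it was -6.25 (adjusted p = 0.00109), a fitted value that depends on the prior count since WT Ctrl held 0 and 1 counts and KO1 Myc 0 and 2. Trim33 mRNA was higher in KO1 Myc than in WT Myc, which alone cannot settle the KO label. Myc mRNA was not higher in WT Myc than in WT Ctrl beyond the spread, but rose with the Myc vector in KO1 and KO2. The part of these values in the differences was not tested.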

How the results depend on the processing

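With 2 libraries per group the tests rest on the spread shared between genes and groups, and depth is lower in the HU experiment (2315327 to 3082202 counts against 14753177 to 17949430). Of 1397 values of single members under an alternative, 1252 kept direction and side of the threshold, 69 lost the call, 30 gained one and 46 changed sign, each of these for a member that had not passed. Dnmt1 and Uhrf1 kept their calls against WT Ctrl and in both differences of the Myc effect in each alternative. The cause of the changes below was not tested.
DESeq2 called 3 members in place of 5 in KO1 Ctrl and in WT Myc against WT Ctrl, 0 in place of 1 in KO1 Myc against WT Myc and 0 in place of 1 in KO HU against KO vehicle. With the compared groups alone in the fit, 3 in place of 1 passed in KO2 Ctrl against KO1 Ctrl, 3 in place of 5 in WT Myc against WT Ctrl, 0 in place of 1 in KO1 Myc and 0 in place of 3 in KO2 Myc against WT Myc. Without the Myc-vector libraries 5 in place of 3 passed in KO2 Ctrl against WT Ctrl and 3 in place of 1 in KO2 Ctrl against KO1 Ctrl. The 5 CPM filter left 1 of 2 in KO2 Myc against KO2 Ctrl, and counts divided by 2 gave 2 in place of 1 in WT HU. Smaller changes in these numbers are left out of this list. Among them, DESeq2 lost Uhrf2 in KO2 Ctrl against WT Ctrl (DESeq2 adjusted p = 0.0116), Tet1 in KO1 Myc against KO1 Ctrl (0.0122) and Tdg in the Myc effect in KO1 minus WT (0.0216). With the groups alone, and without the Myc-vector libraries, Dnmt3a and Uhrf2 gained calls in KO1 Ctrl against WT Ctrl.
Leaving out 1 library at a time gave 3 to 4 members for KO1 Ctrl and 2 for KO2 Ctrl, both against WT Ctrl, 0 to 1 in KO2 against KO1 Ctrl, 3 to 6 in WT Myc against WT Ctrl, 1 to 3 in KO1 Myc against KO1 Ctrl, 0 to 2 in KO2 Myc against KO2 Ctrl, 0 to 3 in KO1 Myc and 1 to 4 in KO2 Myc against WT Myc, and 0 in KO HU against KO vehicle.
Values that changed sign when 1 library was left out had these ranges of log2FC. In KO1 Ctrl against WT Ctrl the range was -0.0862 to 0.0266 for Dnmt3b. In KO2 Ctrl against KO1 Ctrl the range was -0.0125 to 0.00219 for Dnmt3a. In KO1 Myc against KO1 Ctrl the range was -0.00758 to 0.0681 for Dnmt1. In KO2 Myc against KO2 Ctrl the range was -0.0135 to 0.0698 for Tdg. In KO1 Myc against WT Myc the range was -0.0657 to 0.23 for Tet2, -0.0249 to 0.34 for Tet3 and -0.15 to 0.14 for Uhrf1. In KO2 Myc against WT Myc the range was -0.0717 to 0.38 for Dnmt3b and -0.0213 to 0.28 for Tet2. In the Myc effect in KO1 minus WT the range was -0.15 to 0.20 for Dnmt3a, -0.18 to 0.19 for Tet3 and -0.00362 to 0.11 for Uhrf2. In the Myc effect in KO2 minus WT the range was -0.00837 to 0.33 for Dnmt3a and -0.44 to 0.013 for Dnmt3b. In KO vehicle against WT vehicle the range was -0.14 to 0.00149 for Dnmt1. In WT HU against WT vehicle the range was -0.17 to 0.0389 for Dnmt3a and -0.0556 to 0.13 for Uhrf1. In KO HU against KO vehicle the range was -0.057 to 0.16 for Uhrf1. In KO HU against WT HU the range was -0.33 to 0.12 for Dnmt3a and -0.35 to 0.037 for Tet2. In the HU effect in KO minus WT the range was -0.0921 to 0.0521 for Dnmt1, -0.11 to 0.11 for Uhrf1 and -0.19 to 0.18 for Uhrf2. Dnmt3a in KO2 Ctrl against KO1 Ctrl also changed sign to 0.00392 with RLE size factors and in DESeq2, 0.00357 with the 5 CPM filter, 0.00472 with the groups alone and 0.00854 without the Myc-vector libraries, as did Uhrf1 in KO1 Myc against WT Myc, to 0.0029 with the groups alone, and Dnmt3a in the Myc effect in KO1 minus WT, to -0.0202 with the 5 CPM filter.
The labels number the replicates in each group, but same-numbered libraries did not deviate together: in the Myc experiment r over genes was -0.15 to 0.19 for 15 pairs of groups, with 1 over 0.1, and in the HU experiment -0.01 to 0.05 for 6 pairs, with 0 over 0.1. The libraries were therefore not fitted as pairs, although such r cannot exclude that same-numbered libraries were handled together. Over all genes, a replicate block raised the number called in every comparison, for example from 626 to 791 in KO vehicle against WT vehicle. A replicate block gave 6 members in place of 5 in KO1 Ctrl against WT Ctrl, and over single members 120 values kept direction and side of the threshold, 4 gained a call and 1 lost it.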
